A study of Mus musculus with 10 samples.

Results

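The 6 genes described here, Otx2, Pou3f1, Zic2, Sox4, Fgf5 and Fgf15, mark the primed epiblast, the state that follows naive pluripotency in the early mouse embryo. Every probe set whose annotation gave exactly 1 of these symbols was taken, which gave 15 of the 45037 non-control probe sets of the array. Of these, 12 read above the array's own median signal in at least 2 of 10 arrays and were tested, and the other 3 (1 of Fgf5 and 2 of Sox4) lay below the median of every array. Otx2, Zic2 and Fgf15 have 1 probe set each, Pou3f1 and Fgf5 have 2, and Sox4 has 8.

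Gene expression was measured on Affymetrix GeneChip 430 2.0 arrays in 3 groups of sorted mouse cells. AG-haESC are haploid embryonic stem cells from androgenetic blastocysts, whose genome is of paternal origin, with 5 C57BL/6J lines on 1 array each at passages 12 to 15. Replicates 1, 2, 4 and 5 carried an Oct4-EGFP transgene, and replicate 3 carried an Actin-EGFP transgene. The diploid control line E14, male, wild type and of 129/Sv background, was measured on 3 arrays at passage 17. MEF are diploid, wild type embryonic fibroblasts from male B6D2F1 embryos (d13.5), on 2 arrays at passage 2. All cells were sorted in G1/G0 by their DNA content (Hoechst 33342, 15 µg/ml), taking the haploid peak for AG-haESC and the diploid peak for E14 and MEF. AG-haESC grew on feeders in ES medium with CHIR99021, which inhibits GSK3, and PD0325901, which inhibits MEK, while no source used here gives the medium of E14 and MEF. AG-haESC and E14 therefore differ in ploidy, parental origin, strain, transgene, passage and possibly medium, which cannot be told apart. The E14 arrays come from a single line, so that errors on that side hold no spread between diploid lines, and nothing beyond the titles says that the replicates were separate cultures.

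Naive stem cells resemble the preimplantation epiblast, and on leaving that state they lower the naive factors and raise a set of primed genes under FGF and ERK signalling. OTX2 and the POU factor OCT6, the product of Pou3f1, take part in that switch. Fgf5 is a ligand that classically marks the egg cylinder epiblast and is low in naive cells. Inhibition of MEK and GSK3 holds mouse stem cells in the naive state.

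Levels below are log2 of the deposited MAS5 signal, given per array or as mean ± SD, and array medians lay between 5.81 and 6.09 on that scale. Differences come from limma with their standard error and a p adjusted over 27505 probe sets, and a probe set is called when that p is below 0.05 and the difference is at least 2-fold. The trimmed mean of each deposited array came to 500.0, so levels are relative within an array, and a probe set's level cannot be set against that of another. In these bulk samples, fewer cells that express a gene and less RNA per cell cannot be told apart. The labelled identities held for the pluripotent markers: the summed linear signal of Pou5f1, Sox2, Nanog, Esrrb and Zfp42 was 45095 to 49966 in AG-haESC, 42221 to 51727 in E14 and 342 to 462 in MEF. The sum of 6 fibroblast markers was 8785 to 13524 in AG-haESC, 7758 to 9202 in E14 and 100338 to 119615 in MEF. Of these markers Fn1, at 12.25 to 13.05 in AG-haESC and 12.66 to 13.03 in E14, weighs most in the stem cell sums. The collagens among them are given singly below. E14 replicate 3 stood apart from its group, with Pearson's r of 0.919 and 0.909 with E14 replicates 1 and 2 across probe sets, against 0.959 between those. The comparisons of AG-haESC with E14 that lead each account are therefore also given without it, an alternative chosen after seeing the data where gene lists are concerned.

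Of the 12 tested probe sets, 5 were called lower in AG-haESC than in E14 and 0 higher, where 2.89% of all probe sets tested were called lower, 4.37% higher and 7.26% in either direction. The 5 are those of Otx2 and Fgf15 and 3 of the 6 tested for Sox4. Their arrays did not overlap between the groups, which held for 11% of all probe sets in that direction. The differences of all 12 were negative, with a median of -1.22 on the log2 scale against -0.07 over all probe sets. Without E14 replicate 3, only Otx2, Fgf15 and Sox4 probe set 1433575_at stayed called. Pou3f1 probe set 1460038_at then differed by 0.44, the other direction. Of the 12, 6 read the same gene, Sox4, so they are not independent measurements. The 3 probe sets that were not tested differed by -1.10, -0.53 and 0.92, all from signals below the array medians.

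**Figure D1:**
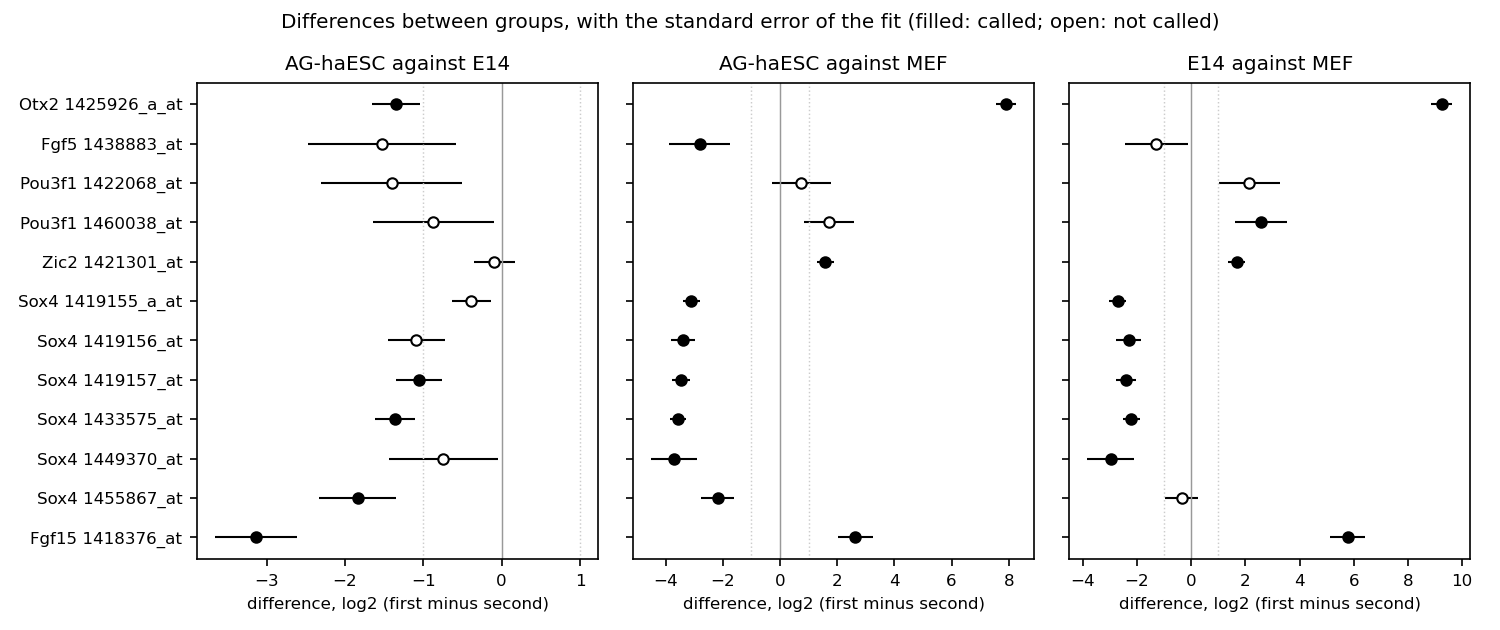
Difference in mean log2 signal (horizontal axis) of each of the 12 tested probe sets (rows) in each comparison, with the standard error of the fit as bars and called probe sets marked. For AG-haESC against E14 the called probe sets lie between -1.05 and -3.14, and Zic2 lies at -0.09.

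Otx2, a homeobox transcription factor needed for head formation in the embryo and for the move out of the naive state, was present in both stem cell groups and lower in AG-haESC. AG-haESC replicates 1 to 5 read 9.16, 8.998, 8.29, 9.59 and 9.63 on probe set 1425926_a_at. E14 replicates 1 to 3 read 10.30, 10.30 and 10.85, and the MEF arrays read 1.51 and 0.96. Every AG-haESC line thus lay below every E14 array, and both MEF arrays lay below their medians. The mean of 9.14 ± 0.54 over the AG-haESC lines (SD, n = 5) stood against 10.48 ± 0.32 for E14 (n = 3). They differed by -1.35 ± 0.31 (SE, 95% interval -2.02 to -0.67, limma adjusted p = 0.0155), or 2.54-fold lower. Without E14 replicate 3 it was -1.16 ± 0.34, 2.24-fold (limma adjusted p = 0.0402). Against MEF, Otx2 was at least 8.89-fold higher in AG-haESC (limma adjusted p = 1.97e-08) and at least 22.6-fold higher in E14 (limma adjusted p = 1.86e-08), with MEF put at the array medians.

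The promoter windows of Otx2, Sox4 and Fgf5 are shown because the first 2 carry the called differences among the genes found in the promoter table and Fgf5 is the classical epiblast marker. Windows span 250 bases before to 50 after an annotated start in RefSeq (build GRCm38.p6), are written 5′ to 3′ on the gene's strand, and were found for 3 of 6 genes, in 6 windows. They were searched on both strands for the OTX homeodomain motif TAATCC (7.06% of 32851 windows hold it), the POU octamer ATGCAAAT (1.74%) and the TCF/LEF motif CTTTGAT (3.73%). The TATA box TATAAA (13.6%) and the CCAAT box CCAAT (37.4%) were added after the sequences were seen. Capitals mark the matches in the lines that follow.
Otx2, chr14:48665060-48665359, minus strand: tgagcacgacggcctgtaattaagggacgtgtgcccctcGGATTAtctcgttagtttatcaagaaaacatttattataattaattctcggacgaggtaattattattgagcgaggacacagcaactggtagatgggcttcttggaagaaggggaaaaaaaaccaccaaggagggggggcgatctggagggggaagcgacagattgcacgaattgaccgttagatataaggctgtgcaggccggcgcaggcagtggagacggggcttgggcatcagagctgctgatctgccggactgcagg
Sox4, chr13:28953650-28953949, minus strand: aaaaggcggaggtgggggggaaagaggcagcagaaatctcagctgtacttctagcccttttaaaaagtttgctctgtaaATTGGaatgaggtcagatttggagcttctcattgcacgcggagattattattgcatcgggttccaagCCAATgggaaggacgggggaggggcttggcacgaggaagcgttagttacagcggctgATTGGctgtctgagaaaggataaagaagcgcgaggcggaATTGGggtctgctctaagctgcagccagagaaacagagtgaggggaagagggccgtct
Fgf5, chr5:98253934-98254233, plus strand: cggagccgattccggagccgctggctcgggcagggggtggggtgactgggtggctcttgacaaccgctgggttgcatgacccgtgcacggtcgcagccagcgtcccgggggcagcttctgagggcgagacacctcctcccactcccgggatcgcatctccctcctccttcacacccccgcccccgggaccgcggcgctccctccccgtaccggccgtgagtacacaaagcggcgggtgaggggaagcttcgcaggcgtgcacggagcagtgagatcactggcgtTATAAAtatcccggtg
Otx2 has 4 windows, and the one shown was chosen because it alone holds the OTX motif, as GGATTA (the other strand) 211 bases before the start. Of the other 3, one holds a CCAAT box at -70, one TATAAA at -192 and one none of the motifs searched. The Sox4 window holds 4 CCAAT boxes, at -171, -104, -47 and -8 from the start, and the Fgf5 window holds TATAAA at 35 bases after the start. No window of the 3 genes held the POU octamer or the TCF/LEF motif. The share of G and C was 51.0% in this Otx2 window, 52.0% in Sox4 and 68.3% in Fgf5, against a median of 52.7% over all windows. A match is a description of letters, and binding was not measured.

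Pou3f1, which encodes the POU domain factor OCT6, did not differ beyond the replicate spread between the stem cell groups, and its E14 mean rests on E14 replicate 3. On probe set 1460038_at, AG-haESC replicates 1 to 5 read 7.97, 8.13, 8.24, 6.87 and 7.002. E14 replicates 1 to 3 read 7.15, 7.24 and 11.14, and the MEF arrays read 5.56 and 6.31. E14 replicates 1 and 2 lay inside the AG-haESC range, and E14 replicate 3 was 15.3-fold above their mean (3.94 log2 units). The means were 7.64 ± 0.65 in AG-haESC, 8.51 ± 2.27 in E14 and 5.93 ± 0.53 in MEF (SD, n = 5, 3 and 2). AG-haESC minus E14 was -0.87 ± 0.77 (SE, 95% interval -2.56 to 0.82, limma adjusted p = 0.511), and without E14 replicate 3 it was 0.44 ± 0.41 (0.498), the other direction. E14 was called above MEF by 2.58 ± 0.96 (limma adjusted p = 0.0424), a call lost without E14 replicate 3, where the difference was 1.27 (0.0501), and kept under 4 of 13 alternatives. AG-haESC minus MEF was 1.71 ± 0.88 and did not pass (limma adjusted p = 0.125), although the arrays of the groups did not overlap, and in a fit of these groups alone it was called (0.00711).

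The second Pou3f1 probe set, 1422068_at, showed the same E14 array apart at a lower signal. It read 3.95, 5.97, 6.06, 3.79 and 5.81 in AG-haESC replicates 1 to 5. It read 5.87, 4.88 and 8.80 in E14 and 3.38 and 5.38 in MEF. Of 10 arrays, AG-haESC replicate 3 and E14 replicate 3 alone lay above their medians, and E14 replicate 3 was 10.7-fold above the mean of the other E14 arrays. AG-haESC minus E14 was -1.40 ± 0.90 (limma adjusted p = 0.348), and -0.26 ± 0.82 without E14 replicate 3 (0.859). Neither comparison with MEF was called.

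Zic2, a zinc finger transcription factor of the epiblast and later of the neural plate, did not differ beyond the replicate spread between the stem cell groups and was lower in MEF. Probe set 1421301_at read 9.02, 8.83, 8.47, 9.15 and 9.36 in AG-haESC replicates 1 to 5. It read 9.17, 9.47 and 8.53 in E14 and 7.64 and 7.13 in MEF. The stem cell groups overlapped throughout, and both MEF arrays lay under all stem cell arrays. AG-haESC minus E14 was -0.09 ± 0.26 (95% interval -0.66 to 0.47, limma adjusted p = 0.856), so a 2-fold difference lies outside the interval. Without E14 replicate 3 it was -0.36 ± 0.25 (limma adjusted p = 0.355). Zic2 was higher than in MEF by 1.58 ± 0.30 in AG-haESC, 2.98-fold (limma adjusted p = 0.000885), and by 1.67 ± 0.32 in E14, 3.19-fold (0.00121). In E14 replicate 3, where Pou3f1 was high, Zic2 was 1.73-fold under the mean of E14 replicates 1 and 2.

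**Figure D2:**
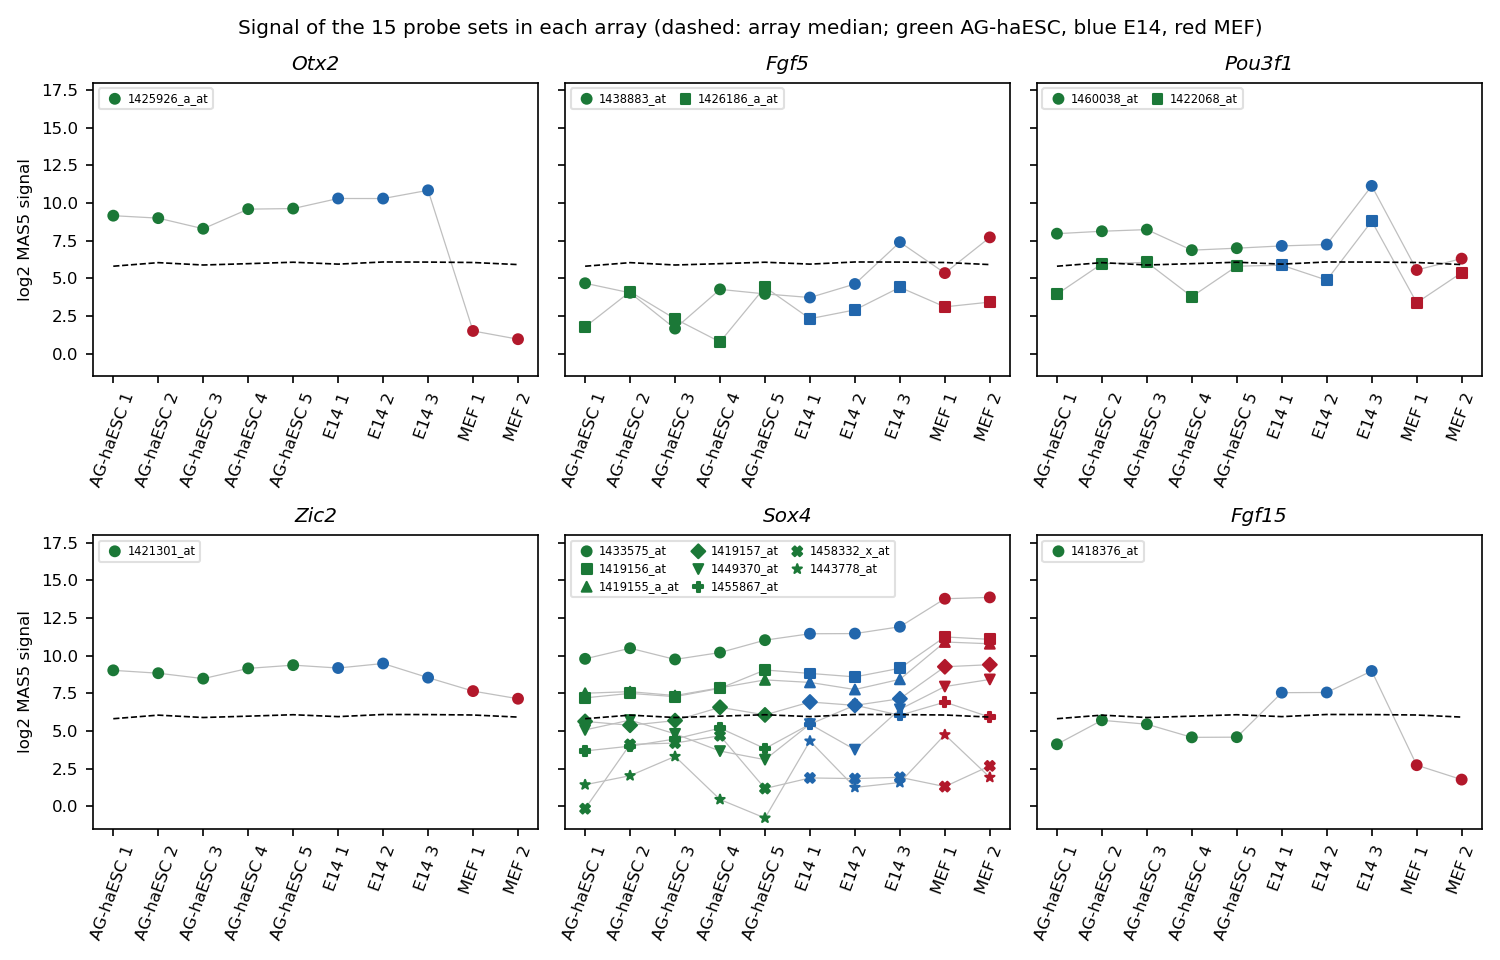
Log2 signal (vertical axis) of the member probe sets in each of 10 arrays, by group, with array medians between 5.81 and 6.09 for reference. Otx2 and Fgf15 are lower in all AG-haESC arrays than in any E14 array, Sox4 is highest in MEF, and E14 replicate 3 lies far above the other E14 arrays for Pou3f1 and Fgf5.

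Sox4, an HMG box transcription factor of the SoxC group that is broadly active in embryonic progenitors and mesenchyme, was highest in MEF, intermediate in E14 and lowest in AG-haESC. Probe set 1433575_at, its brightest, read 9.78, 10.48, 9.74, 10.20 and 11.02 in AG-haESC replicates 1 to 5. It read 11.45, 11.46 and 11.91 in E14 and 13.77 and 13.86 in MEF, so the 3 groups did not overlap. Means were 10.24 ± 0.53, 11.60 ± 0.26 and 13.81 ± 0.06 (SD, n = 5, 3 and 2). AG-haESC was lower than E14 by 2.57-fold (-1.36 ± 0.26, 95% interval -1.93 to -0.79, limma adjusted p = 0.00588), and without E14 replicate 3 by -1.21 ± 0.28 (0.0156). Against MEF it was lower by 11.9-fold in AG-haESC (-3.57 ± 0.30, limma adjusted p = 1.84e-06) and by 4.63-fold in E14 (-2.21 ± 0.32, limma adjusted p = 0.000164).

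The other 5 tested Sox4 probe sets also had negative differences between the stem cell groups, and 2 of them were called, under fewer alternatives than the brightest. Probe set 1419157_at was above the array median in 1 of 5 AG-haESC arrays and in all 3 E14 arrays. It had means of 5.86 ± 0.46 (AG-haESC) and 6.91 ± 0.22 (E14), which differed by -1.05 ± 0.29 (limma adjusted p = 0.0357). Its call was kept under 4 of 14 alternatives. It was lost when an E14 array was left out (limma adjusted p = 0.101, 0.0641 and 0.0730 without E14 replicates 1, 2 and 3) or AG-haESC replicate 1, 2 or 3 (0.0672, 0.0700 and 0.0695). Probe set 1455867_at lay below the array median in every AG-haESC array and in E14 replicates 1 and 3. Its difference was -1.84 ± 0.49 (limma adjusted p = 0.0315), with a bound of at least 1.07-fold lower. That call was kept under 7 of 14 alternatives. It did not hold when AG-haESC replicate 1, 2 or 5 was left out (limma adjusted p = 0.0584, 0.0599 and 0.0607) or E14 replicate 2 or 3 (0.143 and 0.0530). Probe set 1419156_at differed by -1.09 ± 0.36 (limma adjusted p = 0.0738), and without AG-haESC replicate 5, its highest line at 9.04, it was called at -1.41 (0.00322). Probe sets 1419155_a_at and 1449370_at differed by -0.39 ± 0.25 and -0.75 ± 0.69 (limma adjusted p = 0.348 and 0.534). Probe sets 1443778_at and 1458332_x_at read -0.79 to 4.74 over all arrays, below every array median, and their differences between the stem cell groups were -1.10 and 0.92, without a test.

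Fgf15, a secreted ligand of the FGF19 subfamily, was above the array median in E14 and in neither other group. Probe set 1418376_at read 4.11, 5.70, 5.44, 4.57 and 4.58 in AG-haESC replicates 1 to 5, each below its array's median. It read 7.53, 7.55 and 8.97 in E14, above the medians, and 2.72 and 1.77 in MEF, below them. No AG-haESC or MEF array reached the lowest E14 array. Means were 4.88 ± 0.66 in AG-haESC, 8.02 ± 0.83 in E14 and 2.24 ± 0.68 in MEF. AG-haESC was at least 4.18-fold lower than E14 (-3.14 ± 0.52, 95% interval -4.28 to -1.999, limma adjusted p = 0.00271), and at least 2.999-fold lower without E14 replicate 3 (-2.66 ± 0.59, limma adjusted p = 0.0115). E14 was at least 4.10-fold higher than MEF (5.77 ± 0.65, limma adjusted p = 2.28e-05). AG-haESC and MEF both lay below their medians, so no fold is given between them, although that probe set passed the test (limma adjusted p = 0.00291). E14 replicate 3 was 2.70-fold above the mean of the other E14 arrays.

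Fgf5, the epiblast ligand, lay below the array median in every AG-haESC array and in E14 replicates 1 and 2. Probe set 1438883_at read 4.68, 4.04, 1.67, 4.27 and 3.97 in AG-haESC replicates 1 to 5. It read 3.73, 4.62 and 7.40 in E14 and 5.35 and 7.72 in MEF. E14 replicate 3 and MEF replicate 2 alone lay above their medians, and E14 replicate 3 was 9.35-fold above the mean of E14 replicates 1 and 2. AG-haESC minus E14 was -1.53 ± 0.94 (95% interval -3.59 to 0.53, limma adjusted p = 0.326), and -0.45 ± 0.92 without E14 replicate 3 (0.777). AG-haESC was called lower than MEF, by at least 1.49-fold (-2.81 ± 1.08, limma adjusted p = 0.0451), and without MEF replicate 2 the call was lost (0.390). It was kept under 5 of 14 alternatives. The second probe set, 1426186_a_at, read 0.78 to 4.42 over all 10 arrays, below every median.

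E14 replicate 3 was at least 1 log2 unit above both other E14 arrays for 4 of the 12 tested probe sets, both of Pou3f1 and those of Fgf5 and Fgf15, and at least 1 unit below both for 0. Over all 27505 probe sets the shares were 6.99% and 8.10%. Otx2 and the brightest Sox4 probe set were 0.55 and 0.46 units above the mean of the other E14 arrays, and Zic2 was below it by -0.79. In the same array, markers of neural cells summed to a linear signal of 4962 over 8 measured genes, against 1042 and 1045 in E14 replicates 1 and 2, 1179 to 1618 in AG-haESC and 1523 to 1690 in MEF. Of these 8 genes, 4 were at least 1 log2 unit above both other E14 arrays and 1 was below them by as much. Whether neural cells were present in that array, and their part in the primed gene values, was not tested. Neurod1, a proneural factor chosen after its values were seen, read 7.16, 6.75 and 11.43 in E14 replicates 1 to 3. It had the largest rise and the highest signal of the 8 in E14 replicate 3, so it weighs most in that sum. Hes5 read 5.65, 6.24 and 2.63, while Sox1 and Nes moved by -0.01 and 0.09. The pluripotent sum of E14 replicate 3 was the highest of the group, at 51727, although its Nanog was the lowest, at 13.01. Of 16 naive genes, 2 were at least 1 log2 unit above both other E14 arrays in E14 replicate 3 and 3 were below by as much.

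**Figure D3:**
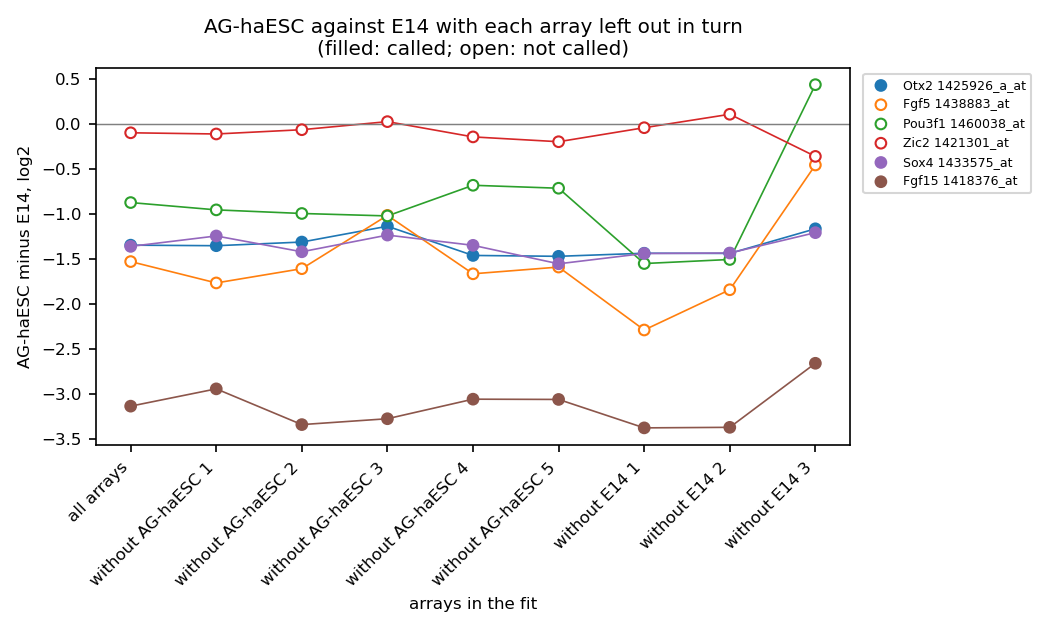
Difference in log2 signal between AG-haESC and E14 (vertical axis) for the brightest tested probe set of each member. The horizontal axis gives the arrays in the fit, all of them or with each left out in turn. Otx2, Sox4 (1433575_at) and Fgf15 stay below 0 throughout, and Pou3f1 moves from -0.87 to 0.44 when E14 replicate 3 is left out.

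Among the 5 AG-haESC lines, most members varied more than the typical probe set, whose median SD over these lines was 0.34. The SD was 0.54 for Otx2, 0.53 for Sox4 (1433575_at), 0.65 for Pou3f1 (1460038_at), 0.66 for Fgf15 and 0.34 for Zic2. Of all probe sets, 75.9% had a smaller SD than Otx2 and 74.8% than this Sox4 probe set. The probe sets compared were not matched for signal level, and Fgf15 lay below the array median in every line. AG-haESC replicate 3, the line with the Actin-EGFP transgene, was lowest for Otx2, Zic2, Fgf5 and the brightest Sox4 probe set and highest for Pou3f1. AG-haESC replicate 5 was highest for Otx2, Zic2 and the brightest Sox4 probe set, while of the 6 tested Sox4 probe sets it was highest for 3 and lowest for 1449370_at. With 1 array per line, a difference between lines cannot be told apart from that between arrays.

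Against MEF, 10 of the 12 probe sets were called for AG-haESC, 3 higher and 7 lower, where 39.2% of all probe sets were called, 19.2% higher and 20% lower. For E14 it was 9, with 4 higher and 5 lower, against 38.9%, 19.8% and 19.1%. The median difference was -2.50 for AG-haESC and -0.82 for E14, against 0.08 and 0.13 over all probe sets, and these medians are set by Sox4, which holds 6 of the 12 probe sets. Arrays did not overlap for 11 and 9 of the 12, 4 with the stem cells higher in each case, where the shares over all probe sets with the stem cells higher were 32.9% and 37.2% and with MEF higher 32.1% and 32.7%. All 6 tested Sox4 probe sets were lower in AG-haESC than in MEF (-3.71 to -2.19), and 5 of 6 were lower in E14 (-2.97 to -2.21). The exception was 1455867_at, at -0.35 ± 0.61 (limma adjusted p = 0.664). The comparisons of both stem cell groups use the same 2 MEF arrays.

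Of 24 other genes of the primed and formative epiblast, 18 were tested, each on its brightest probe set, and 1 was higher and 3 were lower in AG-haESC than in E14, with a median difference of -0.49. Without E14 replicate 3 the counts were 2 and 2, with Foxd3 joining those higher. Over all probe sets and with all arrays, 4.37% were called higher and 2.89% lower. Lef1, a WNT pathway transcription factor, read 7.09 to 8.48 in AG-haESC and 9.53, 9.62 and 9.73 in E14, a difference of -1.53 ± 0.29 (limma adjusted p = 0.00543). Cldn6, a tight junction protein of epithelia, read 6.78 to 7.46 against 8.35, 8.31 and 8.90 (-1.40 ± 0.27, limma adjusted p = 0.00559). Neither gene overlapped between the groups, a lack of overlap that held for 11% of all probe sets in that direction. Fgf8, a ligand of gastrulation, was at least 1.44-fold lower (limma adjusted p = 0.0428), a call lost without E14 replicate 3 (0.121). Gsc, an organizer homeobox gene, was at least 1.37-fold higher in AG-haESC (limma adjusted p = 0.0170). In E14 replicate 3, 7 of the 18 were at least 1 log2 unit above both other E14 arrays and 0 below. The shares over all probe sets were 6.99% and 8.10%. Those 7 genes were Dnmt3a, Dnmt3b, Foxd3, Cdh2, Tcf15, Utf1 and Sox11, named after their values were seen. Dnmt3b, a de novo DNA methyltransferase, read 12.12, 11.73 and 13.83 in E14 replicates 1 to 3 and 11.48 to 12.45 in AG-haESC (-0.56 ± 0.39, limma adjusted p = 0.388).

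**Figure D4:**
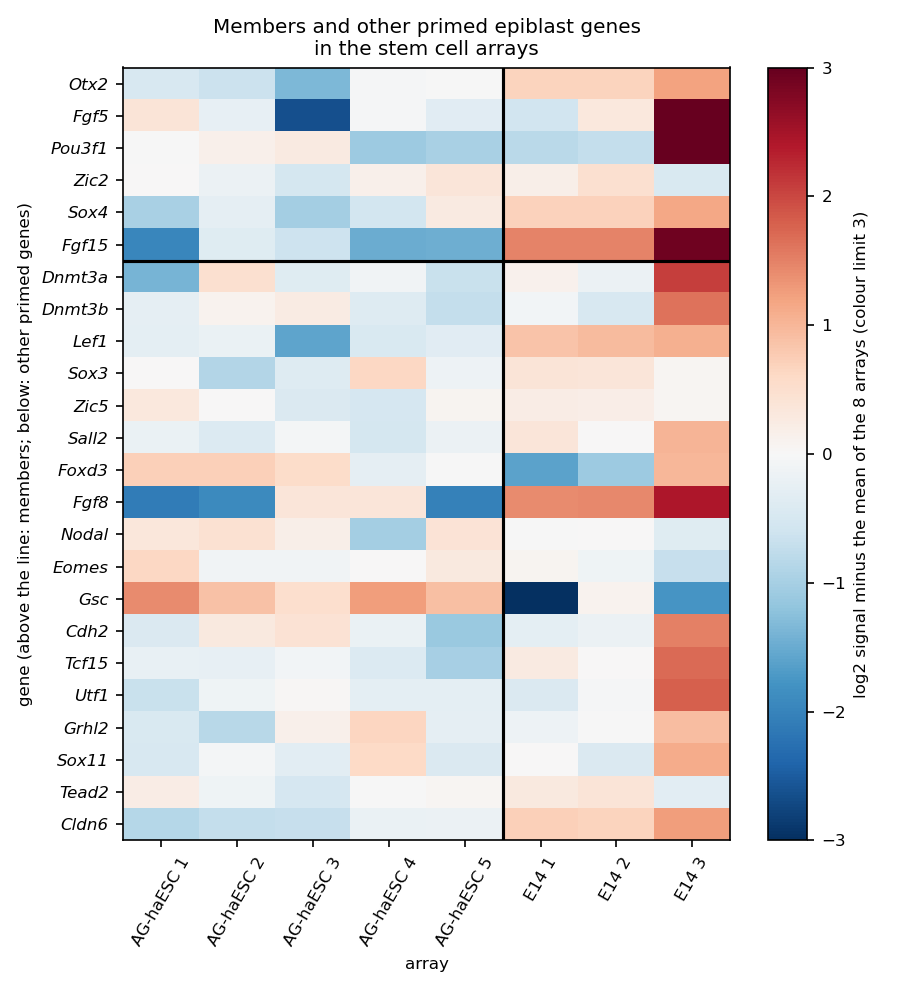
Log2 signal of the members and of other primed genes in the 8 stem cell arrays, centred on each gene's mean over them (colour). E14 replicate 3 stands out within its group for Pou3f1, Fgf5 and several other primed genes, and Otx2, Fgf15 and Lef1 are lower in the AG-haESC arrays.

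With all arrays, 4.37% of all probe sets were called higher in AG-haESC than in E14 and 2.89% lower. Of 16 naive genes tested, 2 were higher and 1 was lower in AG-haESC, and 3 and 0 without E14 replicate 3. Those 3 were Dppa3, Tfcp2l1 (1.38, limma adjusted p = 0.0483) and Tcl1 (1.18, limma adjusted p = 0.00177), the last 2 not called with all arrays. Dppa3, a factor that protects methylation in the zygote, was higher by 1.83 ± 0.35 (limma adjusted p = 0.0062), and Prdm14, a repressor of FGF signalling in naive cells, by 1.43 ± 0.37 (0.0263, and 0.0575 without E14 replicate 3). Zfp42, a naive marker also named Rex1, was lower by -1.56 ± 0.39 (limma adjusted p = 0.0244), a call lost without E14 replicate 3 (0.0610), its highest array at 13.64. Nanog was higher by 0.87 ± 0.12, under 2-fold, while no call was made for Pou5f1 (0.03), Sox2 (-0.04), Klf4 (0.30) or Esrrb (0.10). Of 14 FGF receptors and feedback genes of the ERK pathway, 0 were higher and 2 lower, and 0 and 1 without E14 replicate 3. Egr1, an immediate early target of ERK, read 8.38 to 10.16 in AG-haESC and 12.60, 12.27 and 11.88 in E14 (-2.96 ± 0.31, limma adjusted p = 0.000148). Spred1, a feedback inhibitor of the pathway, was lower by -1.03 ± 0.26 (limma adjusted p = 0.0260), and by -0.60, under 2-fold, without E14 replicate 3. The median difference of the 14 was -0.36. Etv5, Spry2, Etv4 and Spry4, named after their values were seen, differed by -0.04, -0.20, -0.23 and -0.49. Dusp4 and Dusp6, named likewise, differed by -1.28 and -1.30, and none of these was called. Of 11 tested relatives of the members in the POU3, ZIC, SoxC and FGF families (no OTX relative passed the filter), Fgf8 alone was called, and none without E14 replicate 3. The part of the MEK inhibitor named for AG-haESC in these values was not tested.

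Markers of other cells were examined beside these results, where 4.37% of all probe sets were called higher in AG-haESC than in E14 and 2.89% lower. Of 8 neural genes tested, 1 was higher in AG-haESC, Olig2, a factor of the oligodendrocyte and motor neuron lineages, by at least 2.74-fold (limma adjusted p = 6.13e-05). Of 2 trophectoderm genes 1 was higher, Gata3, by at least 2.95-fold (limma adjusted p = 0.000806), while 0 of 4 endoderm genes and 0 of 1 mesoderm gene were called. Of 6 fibroblast genes 3 were higher in AG-haESC, the collagens Col1a1 (at least 3.89-fold), Col1a2 (2.69 ± 0.46 log2 units) and Col3a1 (2.14 ± 0.47), and the surface marker Thy1 differed by 0.42 ± 0.36 (limma adjusted p = 0.483). The other members, Pdgfrb and Fn1, differed by -0.72 and -0.12 and were not called. Without E14 replicate 3 there were 3 fibroblast genes higher and 1 lower, Pdgfrb (-1.37, limma adjusted p = 0.0424), and the counts of the neural, trophectoderm, endoderm and mesoderm lists were as with it. AG-haESC were cultured on feeders, whose part in these values was not tested. Sox4 was higher in MEF than in AG-haESC and lower in AG-haESC than in E14, and the part of feeders in its values was not tested either.

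The genes whose pattern over the 10 arrays lay nearest to each member were found among 13245 other genes by the root mean square difference of centred log2 signals. For Otx2 they were Pla2g1b (0.65), Ripk4 (0.66) and Slc27a2 (0.68). In MEF these genes had means of 1.31, 1.00 and 1.60, below the array medians as for Otx2, so background signals weigh in this match. For Zic2 they were Zfp811 (0.17), Pkmyt1 (0.18) and Pdxp (0.19), and for Sox4 Rgs7bp (0.26), Smarcd3 (0.29) and Arhgef25 (0.31). Pou3f1 lay nearest to Tgm1 (0.60), Ifitm1 (0.64) and Enpp3 (0.65), and Fgf15 to Phlda2 (0.47), Nphs1 (0.61) and Pipox (0.70). Phlda2, a maternally expressed imprinted gene, was at 8.97 in AG-haESC, 11.83 in E14 and 6.43 in MEF. Phlda2, Nphs1 and Pipox all had the order of groups of Fgf15, which follows from their choice as nearest to it. The arrays share group, line and processing, so these distances describe the patterns and carry no test.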

How the data were processed

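The authors deposited 1 signal intensity per probe set and array, on a linear scale, made with MAS5 per the submitters' processing notes. No source used here gives the MAS5 version or detection calls. Each array had a trimmed mean (2% off each end) of 500.0, a scaling that hides any change in total RNA per cell, and signals near the array median hold much background. Of 45101 probe sets, 64 controls were left out, and 34945 paired with 1 symbol in the platform annotation. Signals were taken to log2, and 27505 probe sets above their array's median in at least 2 arrays were fitted with limma 3.58.1 in R 4.3.3, as 3 group means in 1 fit (7 residual degrees of freedom, prior variance following the signal). Two-sided p-values were adjusted by Benjamini-Hochberg over all of them. If no array of the dimmer group reached its median, that group was put at the higher of the median and its own value, and the fold is given as "at least". The number of arrays limits the precision. The test was checked on simulated data.

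The members and gene lists were chosen with earlier results of these data known. All member probe sets were named, of each list the called genes with the largest difference (up to 6) for AG-haESC against E14 and some fixed markers, and for each member above the medians in every array of a group the 3 genes nearest in pattern. Alternatives were a pseudocount of 32, a floor at the array median, no filter, quantile normalization, no trend, 1 probe set per gene, a fit of 2 groups, a replicate block and leaving out each array. Scan dates were not used here, so batches were not examined.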

Additional observations from a re-analysis of the deposited data

Results flagged for a closer look

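For Fgf5 (1438883_at), AG-haESC replicate 3 read 1.67 (log2 signal) against 3.97 to 4.68 in the other 4 AG-haESC arrays. Its gap to the nearest of them was 0.765 of the group's range, above Dixon's critical value of 0.71 for 5 samples. All these arrays lay below their medians for this probe set. Chance flags about 1 in 20 groups, and 12 probe sets were examined in this way.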

How the results depend on the processing

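For AG-haESC against E14, the calls of Otx2, Sox4 (1433575_at) and Fgf15 were kept under all 15 alternatives run, with adjusted p from 0.00764 to 0.0414, from 0.00129 to 0.0210 and from 0.000612 to 0.0115. Of the values of all 12 probe sets under these alternatives, 153 kept their direction and side of the threshold, 17 lost a call, 1 gained one and 3 changed sign. The count of 5 called probe sets, all lower, was 3 with a pseudocount of 32, with a floor at the array median and with 1 probe set per gene. Leaving out 1 array at a time gave 3 to 5, with 3 to 5 lower and 0 higher. For AG-haESC against MEF that range was 9 to 10 (3 higher, 6 to 7 lower), and for E14 against MEF 7 to 9 (3 to 4 higher, 4 to 5 lower). With 1 probe set per gene, where 6 probe sets remain by construction, 5 were called in each of these, with 2 and 1 lower. Some differences changed sign. Over single arrays left out, Pou3f1 (1460038_at) ranged from -1.55 to 0.44 for AG-haESC against E14, positive without E14 replicate 3. Zic2 ranged from -0.36 to 0.11, positive without AG-haESC replicate 3 (0.030) or E14 replicate 2. For AG-haESC against MEF, Pou3f1 (1422068_at) ranged from -0.26 (without MEF replicate 1) to 1.73, and Fgf15 was at -0.027 with the floor. Every AG-haESC and MEF array lay below its median for Fgf15, so the floored value holds the array medians alone. Sox4 (1455867_at) ranged from -0.85 to 0.15 (without MEF replicate 1) for E14 against MEF. Apart from that of Fgf15, the cause of these changes of sign was not tested. The gene lists were run without E14 replicate 3 and under no other alternative.

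E14 and MEF share replicate numbers 1 and 2, which were not shown to pair the arrays (correlation of deviations -0.0018 and -0.030). With the replicate number as a block, 8 probe sets were called for E14 against MEF, 3 higher and 5 lower, and Pou3f1 (1460038_at) was not called (1.27, limma adjusted p = 0.0527). This fit takes E14 replicate 3 out of the comparison, since its number has no MEF array.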
